A study of Arabidopsis thaliana with 58 samples.

Results

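The comparison described here is that of control mature leaves on day 5 with control mature leaves on day 3. It covers 9 of the 58 RNA-seq libraries of the series, chosen by their labels alone, with 5 libraries from day 5 and 4 from day 3. The plants were wild-type Arabidopsis thaliana of the accession Col-0, grown hydroponically with 1.5 mM Mg throughout and never deprived of Mg, and were 15 days old on day 5 and 13 days old on day 3. Mature leaves were the earliest true leaves of the rosette, leaves 1 and 2, and every library was a composite of leaves from 2 to 3 plants. In the series these leaves are the reference for plants moved to 0 mM Mg, so their own change with time had to be known apart from the treatment. For comparison, Mg-deficient mature leaves (3 libraries on day 5 and 3 on day 3, 0 mM Mg), control expanding leaves (leaves 3 and 4 of plants given the same solution, 5 libraries on day 5 and 5 on day 3) and control mature leaves on day 8 (4 libraries, 18 days old) were also read. The days were harvested, and their tables normalised, separately, and the hour of harvest for RNA is not given in the sources used here, so that leaf age and harvest occasion cannot be told apart in any value below.

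As a leaf matures it turns from a sink, which imports sugar, amino acids and metals, into a source, which exports them. Its cells stop dividing, walls stop loosening and gain their final composition, the central vacuole is full, and storage of defence compounds and of Ca in the vacuole of mesophyll cells goes on. In Arabidopsis the main defence compounds of rosette leaves are glucosinolates, sulphur-rich thioglucosides that myrosinase enzymes hydrolyse when tissue is damaged. The aliphatic class is built from methionine, whose side chain is first lengthened in a cycle resembling leucine synthesis. Many leaf transcripts also follow the circadian clock, which makes the hour of harvest a matter of concern when days are compared.

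Levels are CPM, that is the deposited signal of a gene after each library was scaled to a total of 1000000, and fold changes and SEs are on the scale of log2(CPM + 1), day 5 over day 3. Every adjusted p is the Benjamini-Hochberg value of limma over all genes tested in that comparison, and genes below 0.05 are said to have risen or fallen. The libraries of day 5 held 1126461 to 4014871 reads and those of day 3 held 1753002 to 2179592 reads, with 16014 to 17594 genes read on day 5 and 16042 to 17627 on day 3. Library 5 of day 5, the deepest, had the fewest genes read (16014) and the lowest mean correlation with the others of its day (0.817). Library 1 of day 5 correlated on average more with the day 3 libraries (0.866) than with the others of its own day (0.853). Libraries 4 and 5 of day 5 drew 0.508 and 0.644% of their signal from chloroplast-encoded genes. This share was 1.88 to 2.47% in the other day 5 libraries and 1.99 to 3.09% on day 3. The shares of the days overlapped (exact permutation test, p = 0.18, smallest possible p = 0.0079). As bulk RNA was measured, fewer cells of a type and less RNA per cell cannot be told apart.

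The leaves carried their label. RBCS1A, a small subunit of Rubisco, was among the most abundant transcripts (18480 to 28550 CPM on day 5 and 28610 to 36250 CPM on day 3). Of 15 root markers 13 were at 0 in all 9 libraries, and 6 of 7 shoot meristem markers and 6 of 8 stomatal lineage markers were also at 0.

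Of 13118 genes tested, 55 rose and 63 fell, which is 0.419% and 0.48% of all genes tested and 0.9% together. The values of the days did not overlap for 53 of the 55 and for 62 of the 63, while this was so for 3.06% of all genes in the higher direction and 2.47% in the lower one. At an unadjusted p under 0.01, the threshold used by the study, 362 genes (2.76%) were higher and 293 (2.23%) lower. The median log2 fold change of all genes was 0.05 and 54.5% of genes were above 0. With size factors from the median of ratios in place of library totals 40 genes rose and 75 fell, and at an unadjusted p under 0.01 262 were higher and 365 lower, so that the balance between rises and falls depends on the scaling. The total of 118 also depended on single libraries, as 19 genes were called without library 2 of day 3, 74 without library 3 of day 3, 31 without library 4 of day 3, 39 without library 3 of day 5 and 181 without library 1 of day 5. The number of rises was 33 without library 4 of day 5 and 86 without library 5 of day 5, and without both of these libraries, those of low chloroplast share, 121 genes rose and 98 fell. Single genes were followed through the alternative settings only where they were named by rule or were called members of a family. Of these, 6 were called in all 21 alternative settings, namely MAM1, BCAT4, CYP79F1, FLA2, the EF-hand gene AT2G46600 and the protein kinase gene AT1G66920. HMT3 was called in all 20 settings that tested it. Genes described from outside these sets, such as SOT17 and CA1, were not followed.

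CAX3, which encodes a proton-driven Ca exchanger of the vacuolar membrane (TAIR10.1, chr3:19239305-19242913), showed the largest log2 fold change of the rises. It stood at 665, 714, 764, 958 and 1107 CPM on day 5, against 162, 11.2, 105 and 1.17 CPM on day 3 (log2 fold change 4.99 ± 0.83, adjusted p = 0.009). By the ratio of the means CAX3 (12.1) came after MAM3 (18.8) and AT5G15500 (17.5). Libraries 1 and 3 of day 3 were well above libraries 2 and 4, yet the lowest day 5 library was far above all of them. CAX1, its paralogue in the same membrane, stood at 808, 619, 812, 759 and 504 CPM on day 5, against 524, 396, 376 and 344 CPM on day 3, with a log2 fold change of 0.77 ± 0.20, adjusted p = 0.076, and the days overlapped in 1 library. The other 9 tested genes of the list of Mg and Ca transporters, MHX1 and the MRS2 family of Mg channels, had adjusted p-values of 0.46 or more, so that 1 of 11 rose and 0 fell, with a median of 0.44. CAX3 lost its call without library 2 of day 3 and with no filter on low genes (highest adjusted p over the 21 alternatives 0.16).

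Among calmodulin-like and EF-hand proteins, a family drawn up after the values were seen, 3 of 29 tested genes rose and 0 fell. The median was 0.12, and 0.419% of all genes rose. CML41, a calmodulin-like Ca sensor (chr3:18873911-18874836), had 109, 144, 119.6, 116 and 305 CPM on day 5, against 58.9, 2.98, 42.8 and 0.078 CPM on day 3 (3.84 ± 0.83, adjusted p = 0.034). The same 2 libraries of day 3, 1 and 3, were the high ones for CML41 as for CAX3. AT2G46600, an EF-hand protein, had 452, 603, 639, 494 and 710.4 CPM on day 5, against 178, 150, 212 and 108 CPM on day 3 (1.85 ± 0.21, adjusted p = 0.00043), with little spread inside either day. A further EF-hand protein, AT2G41410, had 264 to 555 CPM on day 5, against 97.6 to 254 CPM on day 3 (1.32 ± 0.27, adjusted p = 0.026). Also risen, and on no list counted here, were ACA10 and CIPK9. ACA10, a Ca pump, averaged 56.3 ± 15.1 CPM on day 5, against 23.5 ± 7.77 CPM on day 3 (SD, n = 5 and 4; 1.23 ± 0.29, adjusted p = 0.05, just below the threshold before rounding). CIPK9, a kinase that is switched on by Ca sensors of the CBL type, averaged 144 ± 23.5 CPM on day 5, against 74.3 ± 4.96 CPM on day 3 (SD, n = 5 and 4; 0.93 ± 0.20, adjusted p = 0.033). CML41 lost its call without library 2 or 4 of day 3 and without library 2, 3 or 4 of day 5 (highest adjusted p over the alternatives 0.24).

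RING1, an E3 ubiquitin ligase with a RING finger, followed the same order of libraries on day 3, with 147, 201, 242, 250 and 435 CPM on day 5, against 119.5, 37.5, 90 and 14.5 CPM on day 3 (2.25 ± 0.45, adjusted p = 0.024). It was called in 16 of 21 alternatives and lost its call without library 2 or 4 of day 3 and library 3 or 4 of day 5 (highest adjusted p 0.21). AT1G66920, a protein kinase of unassigned function, had 20, 43, 30.7, 48.2 and 42.1 CPM on day 5, against 9.64, 6.88, 7.14 and 4.82 CPM on day 3 (2.19 ± 0.34, adjusted p = 0.0059). AT1G35710, a leucine-rich repeat kinase, was higher on average but its days overlapped, with 894, 1730, 2417, 1404 and 2563 CPM on day 5, against 563, 517, 1078 and 449 CPM on day 3 (1.45 ± 0.30, adjusted p = 0.026). Of 25 tested genes of salicylic acid signalling and defence 0 rose or fell, and the median was 0.18. Their spread inside each day was wide, with a summed level of 1150 to 9180 CPM on day 5, against 2520 to 7760 CPM on day 3. PR2, a beta-1,3-glucanase of this list, had 164, 870, 718, 1565 and 3173 CPM on day 5. On day 3 PR2 had 1295, 129, 1451 and 20.4 CPM (1.7 ± 0.97, adjusted p = 0.48), with libraries 1 and 3 again high. ACD6 of the same list had 597, 857, 866 and 906 CPM on day 3, a different order.

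**Figure D1:**
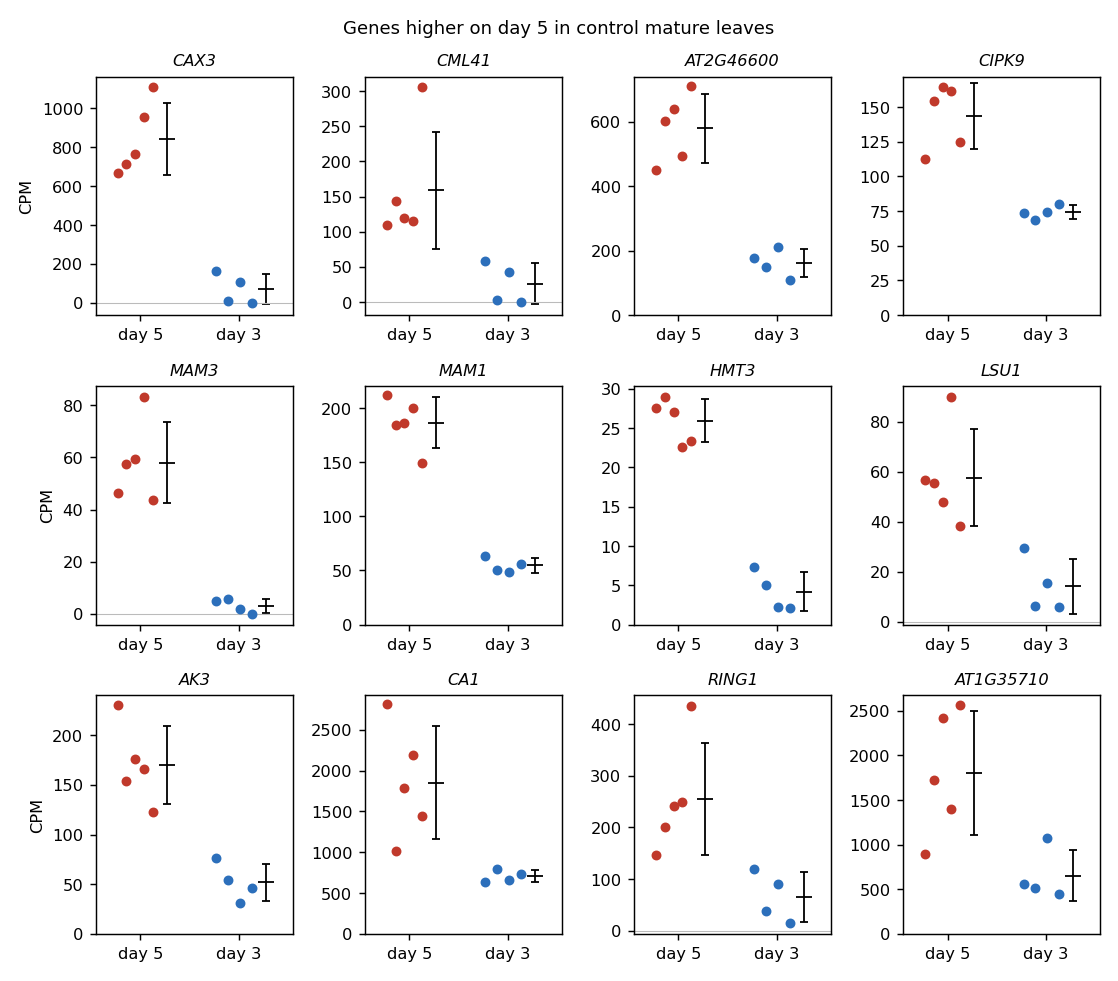
CPM of genes that rose, 1 panel per gene; red points are the day 5 libraries, blue points the day 3 libraries, and bars give the mean ± SD of 5 and 4 libraries. CAX3 stood at 665 to 1107 CPM on day 5 and at 1.17 to 162 CPM on day 3, and the points of the 2 days do not overlap for CAX3, MAM3 or AT2G46600.

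Aliphatic glucosinolate synthesis was the gene list with the most rises. Like the other lists, it was chosen with earlier results of these data known. Of the 20 genes on the list, all tested, 9 rose and 0 fell, 19 had a positive log2 fold change and the median was 0.88, beside 0.05 for all genes and 0.419% of all genes rising. Counting libraries, the summed level of the list was 3670 to 5210 CPM on day 5, against 1640 to 2950 CPM on day 3. Between 5 and 11 of the 20 rose in the 21 alternatives, with 5 both without library 2 of day 3 and with no filter on low genes.

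The side chain of methionine is lengthened by the enzymes that come first in this pathway. BCAT4, which removes the amino group of methionine (chr3:6846969-6849582), had 517, 401, 446, 475 and 374 CPM on day 5, against 218, 181, 106 and 156 CPM on day 3 (1.45 ± 0.21, adjusted p = 0.0048). MAM1, a methylthioalkylmalate synthase that lengthens the chain (chr5:7703041-7706973), had 212, 185, 186, 201 and 149 CPM on day 5, against 63.3, 50.4, 48.3 and 56.5 CPM on day 3 (1.75 ± 0.20, adjusted p = 0.00043). MAM3, the neighbouring synthase on the same chromosome (chr5:7718118-7721866) that makes the longest side chains, had 46.2, 57.5, 59.4, 83.2 and 43.8 CPM on day 5, against 5.08, 5.61, 1.66 and 0.0249 CPM on day 3 (4.15 ± 0.48, adjusted p = 0.00043). MAM3 was thus close to 0 on day 3, where the lowest value, in library 4, is below 1 read, and it was well detected in every day 5 library. MAM1 and MAM3 are similar in sequence, so that reads can be split between them. MAM3 lost its call on the recovered reads (voom, highest adjusted p 0.053).

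The isomerase of the same cycle followed. IIL1, its large subunit, had 348, 283, 341, 378 and 331 CPM on day 5, against 242, 200.1, 143 and 158 CPM on day 3 (0.88 ± 0.19, adjusted p = 0.039). IPMI2, a small subunit that is not on the list, averaged 377 ± 78.9 CPM on day 5, against 182 ± 52 CPM on day 3 (SD, n = 5 and 4; 1.07 ± 0.22, adjusted p = 0.029). IPMDH1, the dehydrogenase that closes the cycle, did not pass the test although its days did not overlap, with 106 to 139 CPM on day 5, against 58.8 to 88.4 CPM on day 3 (0.73 ± 0.21, adjusted p = 0.11). BAT5, the chloroplast transporter of the keto acids, had 53.3 to 100 CPM on day 5, against 20.3 to 63.1 CPM on day 3 (0.91 ± 0.31, adjusted p = 0.19).

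The core structure is then made in steps that also gave several rises. CYP79F1, which turns the lengthened amino acid into an aldoxime (chr1:5608682-5612064), had 431, 376, 351, 409 and 349 CPM on day 5, against 223, 149, 103 and 133 CPM on day 3 (1.38 ± 0.21, adjusted p = 0.0058). CYP83A1, which oxidises the aldoxime, had 449, 364, 341, 318 and 253 CPM on day 5, against 262, 144, 90.1 and 139 CPM on day 3 (1.2 ± 0.26, adjusted p = 0.034), and library 1 of day 3 reached above library 5 of day 5. GSTU20, a glutathione S-transferase, was the most abundant member, with 801 to 1325 CPM on day 5, against 433 to 726 CPM on day 3 (0.89 ± 0.20, adjusted p = 0.048). SOT17, a sulphotransferase of the last core step, had 184, 167, 172, 178 and 196 CPM on day 5, against 105, 55.9, 47.8 and 61.3 CPM on day 3 (1.46 ± 0.23, adjusted p = 0.0059). FMOGSOX3, which oxidises the sulphur of the finished side chain, had 221 to 326 CPM on day 5, against 72 to 176 CPM on day 3 (1.48 ± 0.25, adjusted p = 0.0098). The core enzymes that did not pass the test, CYP79F2, SUR1, GSTF11, UGT74B1, UGT74C1 and SOT18, had log2 fold changes of 0.47 to 0.97. In SOT18, UGT74B1 and UGT74C1 libraries 4 and 5 were the lowest of day 5, with 75.6 and 62.8 CPM of SOT18 while libraries 1, 2 and 3 had 147, 128 and 110.0 CPM.

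The factors that switch the pathway on were not among the genes called. MYB28 had 60.3, 27.5, 37.7, 47 and 38.6 CPM on day 5, against 49.5, 30.2, 31.9 and 24 CPM on day 3 (0.31 ± 0.29, adjusted p = 0.69), and the days overlapped widely. MYB29 had 29, 10.5, 15.8, 13.4 and 0 CPM on day 5, against 26.1, 15.6, 5.54 and 14.4 CPM on day 3 (-0.60 ± 0.74, adjusted p = 0.78). Indole glucosinolates and myrosinases gave no call, as 0 of 10 tested genes rose or fell with a median of 0.13. Among them the myrosinase TGG1, which hydrolyses glucosinolates, was lower without overlap but did not pass the test, with 221 to 309 CPM on day 5, against 370.3 to 465 CPM on day 3 (-0.74 ± 0.18, adjusted p = 0.057).

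**Figure D2:**
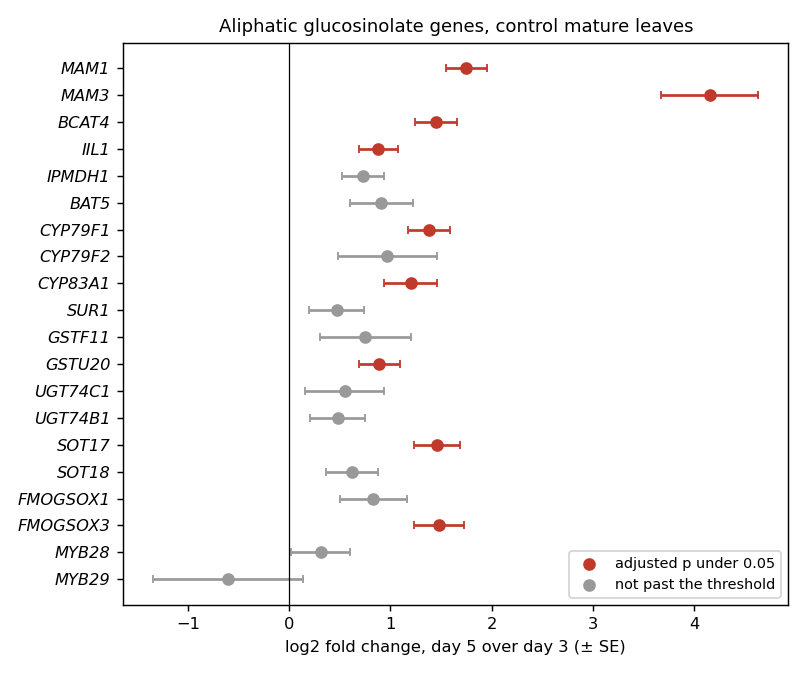
Log2 fold change (day 5 over day 3, log2(CPM + 1) scale) of the 20 aliphatic glucosinolate genes in pathway order, with bars of 1 SE. Red points are the 9 genes that rose, grey points the 11 that did not pass the test, and MYB29 alone lies below 0.

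Sulphur enters glucosinolates both through methionine and through sulphate, and genes of sulphate assimilation leaned the same way. LSU1, named for its response to low sulphur, had 56.5, 55.5, 47.8, 89.9 and 38.4 CPM on day 5, against 29.4, 6.28, 15.4 and 5.92 CPM on day 3 (2.16 ± 0.40, adjusted p = 0.015), and it lost its call without library 2 or 4 of day 3 (highest adjusted p over the alternatives 0.14). It was the 1 gene of 13 tested that rose, but all 13 were positive, with a median of 0.52. By comparison, 0.419% of all genes rose and 54.5% were above 0, a balance that depends on the scaling. APS1, the ATP sulphurylase, had 332 to 429.8 CPM on day 5, against 210.4 to 306 CPM on day 3 (0.68 ± 0.18, adjusted p = 0.088), and APR2, an APS reductase, had 188 to 257 CPM on day 5, against 120.3 to 161 CPM on day 3 (0.59 ± 0.19, adjusted p = 0.16). Neither of them passed, although their days did not overlap, which held for 3.06% of all genes in the higher direction.

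Enzymes that supply or use methionine changed in both directions. HMT3, which makes methionine from homocysteine and S-methylmethionine, had 27.6, 29, 27, 22.7 and 23.4 CPM on day 5, against 7.33, 5.08, 2.21 and 2.16 CPM on day 3 (2.49 ± 0.39, adjusted p = 0.0059). AK3, an aspartate kinase at the head of the pathway to methionine, averaged 169.9 ± 39.3 CPM on day 5, against 51.9 ± 18.9 CPM on day 3 (SD, n = 5 and 4; 1.73 ± 0.26, adjusted p = 0.005), and AK-HSDH I, a bifunctional aspartate kinase, averaged 54.7 ± 11.1 CPM on day 5, against 24.3 ± 6.64 CPM on day 3 (SD, n = 5 and 4; 1.15 ± 0.26, adjusted p = 0.048). MSRB5, which reduces oxidised methionine in proteins, had 132, 116, 121, 124 and 89 CPM on day 5, against 34.2, 36.8, 11.6 and 45.2 CPM on day 3 (1.97 ± 0.32, adjusted p = 0.0072).

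Several genes for enzymes that spend methionine as a methyl donor and recycle the product fell, but others for the same steps did not pass. SAHH2, which splits S-adenosylhomocysteine (chr3:8587622-8589754), had 274, 378, 129.8, 179 and 75.8 CPM on day 5, against 1107, 956, 809 and 899.8 CPM on day 3 (-2.38 ± 0.33, adjusted p = 0.0036). The highest day 5 library was still below 809 to 1107 CPM, the whole range of day 3. MTO3, an S-adenosylmethionine synthetase, had 132 to 204 CPM on day 5, against 275 to 341 CPM on day 3 (-0.91 ± 0.18, adjusted p = 0.026), and ADK1, an adenosine kinase that clears the other product, had 73.5 to 114 CPM on day 5, against 170.2 to 243 CPM on day 3 (-1.09 ± 0.20, adjusted p = 0.015). In the methionine and methylation cycle, a family drawn up after the values were seen, 1 of 13 tested genes rose and 3 fell, with a median of -0.34. HOG1, another S-adenosylhomocysteine hydrolase, averaged 581 CPM on day 5, against 815 CPM on day 3 (-0.50 ± 0.18, adjusted p = 0.23). The synthetases SAM1, SAM-2 and MAT3 had 0.04, 0.27 and -0.42, and the adenosine kinase ADK2 had -0.34 (adjusted p-values of 0.46 or more). MTO3 lost its call in 6 of the 9 fits without 1 library, those without any 1 of the day 3 libraries or without library 2 or 3 of day 5 (highest adjusted p 0.1).

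Several fasciclin-like arabinogalactan proteins fell. FLA2, a fasciclin-like arabinogalactan protein (chr4:7491227-7493080) anchored to the outer face of the plasma membrane, had 53.3, 18, 15, 40.9 and 19.3 CPM on day 5, against 203, 167, 137 and 244 CPM on day 3 (-2.78 ± 0.33, adjusted p = 0.00058). FLA7 had 9.35, 1.99, 4.31, 14.1 and 12 CPM on day 5, against 51.3, 55.1, 54.4 and 36.3 CPM on day 3 (-2.64 ± 0.43, adjusted p = 0.0088). FLA8 had 227, 114, 155, 176 and 54.2 CPM on day 5, against 669, 409, 359 and 560.4 CPM on day 3 (-1.88 ± 0.32, adjusted p = 0.01). Together with FLA16 (-1.88, adjusted p = 0.025), 4 of the 11 tested genes of this family of 27 fell, where 0.48% of all genes fell, and 10 of the 11 were negative with a median of -1.22. The classical arabinogalactan proteins gave 3 falls in 18 tested genes of 30, with 17 negative and a median of -1.19. AGP21 had 489, 174, 256, 426 and 231 CPM on day 5, against 1030, 868, 691 and 1076 CPM on day 3 (-1.62 ± 0.27, adjusted p = 0.0088), while AGP9 and AGP41 had log2 fold changes of -1.33 and -1.92. Both families were drawn up after the values were seen.

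Single genes for other wall proteins fell as well. GER3, a germin-like protein of the wall space, had 766, 154, 171, 817 and 49.7 CPM on day 5, against 2113, 2675, 1883 and 2465 CPM on day 3 (-3.22 ± 0.57, adjusted p = 0.014). Libraries 1 and 4 of day 5 kept more GER3 than libraries 2, 3 and 5, and the same libraries 1 and 4 were the higher ones for PRP4, a proline-rich wall protein, with 1312, 518, 559, 1201 and 375 CPM on day 5, against 2299, 2225, 1828 and 2668 CPM on day 3 (-1.67 ± 0.30, adjusted p = 0.015). XTH31, a xyloglucan endotransglucosylase of the wall, had 10.6 to 58 CPM on day 5, against 61 to 99.2 CPM on day 3 (-1.56 ± 0.36, adjusted p = 0.048). It was not on the list of such enzymes, of which 0 of 9 tested genes rose or fell with a median of -0.39. SKU5, a wall protein known for its part in directional root growth, had 82.9 to 155 CPM on day 5, against 254 to 286 CPM on day 3 (-1.21 ± 0.21, adjusted p = 0.01). Expansins, which loosen walls, gave 0 calls in 13 tested genes with a median of -0.22. GER3 lost its call without library 2 or 4 of day 3 (highest adjusted p over the alternatives 0.18).

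Membrane lipids and the cuticle were represented by single genes. GPAT3, a glycerol-3-phosphate acyltransferase, had 10.8, 6, 3.65, 6.19 and 1.92 CPM on day 5, against 17.3, 53.7, 37.9 and 97.8 CPM on day 3 (-2.87 ± 0.49, adjusted p = 0.01), with library 4 of day 3 the highest. FAD3, the desaturase that makes linolenic acid in the endoplasmic reticulum, averaged 73.5 ± 8.84 CPM on day 5, against 156 ± 18.6 CPM on day 3 (SD, n = 5 and 4; -1.08 ± 0.20, adjusted p = 0.015). LTPG2, a lipid-transfer protein anchored at the cell surface, averaged 118 ± 23.4 CPM on day 5, against 262 ± 52.8 CPM on day 3 (SD, n = 5 and 4; -1.15 ± 0.21, adjusted p = 0.015). Of the lipid-transfer protein superfamily, a family drawn up after the values were seen, 4 of 21 tested genes fell and 0 rose (median -0.32). For all genes the share that fell was 0.48%. Among the 4 was AT2G10940 with 10 to 188 CPM on day 5, against 259 to 461 CPM on day 3 (-2.77 ± 0.59, adjusted p = 0.032). AT2G10940 lost its call in 9 of 21 alternatives (highest adjusted p 0.24), AT1G55260 in 11 of 21, AT3G22142 in 6 of 20 and LTPG2 in 3 of 21. The list of cuticle and wax genes had 0 calls in 18 tested genes, all 18 negative, with a median of -0.58.

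In the vacuolar membrane, where CAX3 rose, 2 water channels fell. TIP2;1 had 448, 134, 269.6, 558 and 252 CPM on day 5, against 1084, 699.5, 631 and 1201 CPM on day 3 (-1.55 ± 0.33, adjusted p = 0.029), and libraries 1 and 4 were again the highest of day 5. TIP1;1 had 472, 426, 366, 633 and 241 CPM on day 5, against 1020, 830.3, 667 and 1025 CPM on day 3 (-1.10 ± 0.24, adjusted p = 0.037). The remaining 13 of 15 tested aquaporins did not pass and the median of the list was -0.19. Both calls were lost without library 1, 2 or 4 of day 3 and without library 2 or 3 of day 5 (highest adjusted p 0.21 for TIP2;1 and 0.18 for TIP1;1).

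Genes of zinc uptake were among the falls. ZIP9, a transporter of the ZIP family (chr4:15932420-15934762), had 37.8, 96.6, 6.92, 23 and 0 CPM on day 5, against 354, 307, 253 and 225 CPM on day 3 (-4.24 ± 0.84, adjusted p = 0.023), the largest fall among genes of more than 20 CPM. ZIP3 had 0.459, 3.51, 0.65, 4.45 and 0 CPM on day 5, against 17.1, 12.8, 16.5 and 14.9 CPM on day 3 (-2.84 ± 0.62, adjusted p = 0.037). ZIP12 had 2.81, 5.01, 1.22, 0.187 and 0 CPM on day 5, against 16.5, 22.6, 8.82 and 14.4 CPM on day 3 (-2.80 ± 0.64, adjusted p = 0.048). The family, drawn up after the values were seen, had 3 falls in 9 tested genes of 15, beside 0.48% of all genes. All 9 were negative, with a median of -0.84. NAS4, which makes the metal chelator nicotianamine, had 33.6, 27, 16.7, 30.1 and 27.9 CPM on day 5, against 65.6, 55.5, 62.6 and 58.6 CPM on day 3 (-1.16 ± 0.26, adjusted p = 0.038), the 1 fall in 12 tested iron genes. ZIP9 lost its call without any 1 of the 4 day 3 libraries and without library 3 of day 5 (highest adjusted p 0.22), and ZIP3 in the same fits. ZIP12 lost its call in 11 of 20 alternatives (highest adjusted p 0.23) and NAS4 in 10 of 21 (0.39). MT1C, a metallothionein that binds metals, rose with 333 to 444 CPM on day 5, against 157 to 207 CPM on day 3 (0.97 ± 0.18, adjusted p = 0.015).

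Several genes of chromatin assembly and DNA synthesis fell. HTA6, a histone H2A, had 31.3, 25.5, 41, 52.7 and 15 CPM on day 5, against 64, 186, 103 and 111 CPM on day 3 (-1.79 ± 0.34, adjusted p = 0.018). HIS4, a histone H4, had 65.4, 89, 74, 66 and 49.9 CPM on day 5, against 103, 196, 171 and 177 CPM on day 3 (-1.2 ± 0.24, adjusted p = 0.021). HTB9, a histone H2B, had 46.7, 42.5, 60.2, 28.4 and 23.3 CPM on day 5, against 82.8, 120.3, 79.6 and 89.5 CPM on day 3 (-1.25 ± 0.28, adjusted p = 0.041). With the histone genes AT1G09200, AT3G45930 and AT5G59690, 6 of 35 tested genes of the histone family (46 annotated) fell and 0 rose. By comparison, 0.48% of all genes fell and 54.5% were above 0. In the family 30 were negative, with a median of -0.67. This family was drawn up after the values were seen, and its members are near copies among which reads can be split. CYCA3;2, an A-type cyclin, had 1.9 to 6.56 CPM on day 5, against 14.9 to 21.9 CPM on day 3 (-1.91 ± 0.44, adjusted p = 0.048). DUT1, a dUTPase that protects new DNA from uracil, had 20.3 to 42 CPM on day 5, against 62.3 to 110.3 CPM on day 3 (-1.44 ± 0.26, adjusted p = 0.015). The list of cell division genes, most of them too low to be tested, had 0 calls in 11 tested genes with 8 negative and a median of -0.81. Library 1 of day 3 was the lowest of its day for HTA6 and HIS4, and the histone calls were among those lost without single libraries (highest adjusted p over the alternatives 0.15 for HTA6 and 0.19 for HTB9). Over the 21 alternatives the call was lost in 3 for HTA6, 5 for HIS4, 6 for AT5G59690 and 8 for AT3G45930. It was lost in 10 for HTB9 and in 11 for AT1G09200 (highest adjusted p 0.21).

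**Figure D3:**
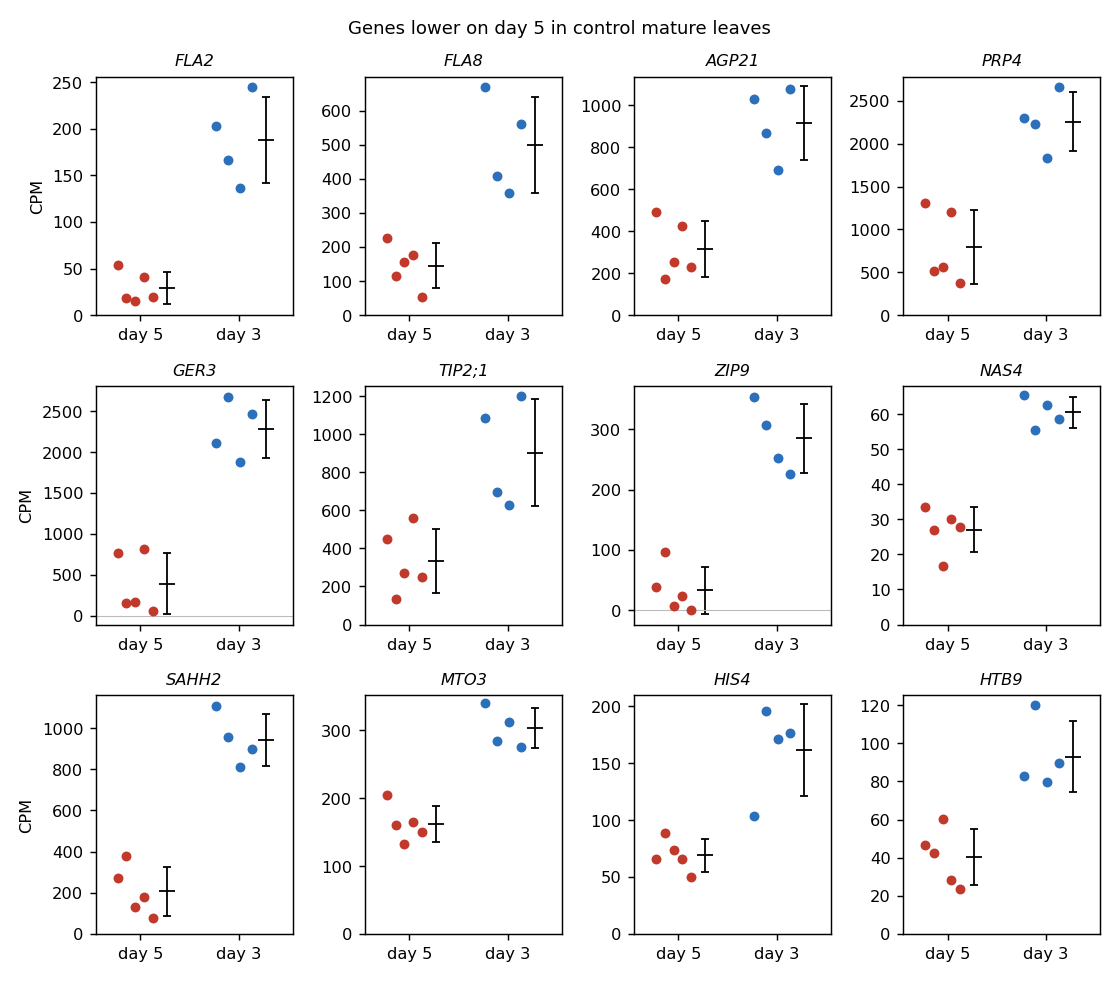
CPM of 12 genes that fell, 1 panel per gene; red points are the day 5 libraries, blue points the day 3 libraries, and bars give the mean ± SD of 5 and 4 libraries. In every panel the highest day 5 library lies below the lowest day 3 library, as for SAHH2 with 75.8 to 378 CPM on day 5 and 809 to 1107 CPM on day 3.

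The levels of other cell types were read beside these falls. Summed guard cell markers reached 73.7 to 122 CPM on day 5, against 127 to 171 CPM on day 3, which did not overlap. All 5 tested guard cell markers were negative with a median of -0.95 and 0 passed the test, FAMA coming nearest with 38.8, 21, 41.6, 33.9 and 30.7 CPM on day 5, against 87.7, 57.8, 56.6 and 56.5 CPM on day 3 (-0.95 ± 0.26, adjusted p = 0.099). Summed epidermis and trichome markers reached 201 to 271 CPM on day 5, against 253 to 368 CPM on day 3, and summed vascular markers 369 to 540 CPM on day 5, against 365 to 459 CPM on day 3. Root markers summed to 0.994 to 9.57 CPM on day 5, against 4.96 to 12 CPM on day 3, and the stomatal lineage to at most 5.4 CPM on either day. What part a lower share of epidermal or guard cell RNA had in the falls was not tested.

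Few photosynthesis genes passed the test. CA1, a chloroplast carbonic anhydrase, rose with 2812, 1011, 1792, 2192 and 1444 CPM on day 5, against 634, 791, 657 and 737 CPM on day 3 (1.31 ± 0.24, adjusted p = 0.015). In the light harvesting antenna 1 of 21 tested genes rose and 1 fell, with a median of -0.05. LHCB1.4 had 646, 356, 487, 585 and 758 CPM on day 5, against 309, 238, 326 and 193 CPM on day 3 (1.07 ± 0.23, adjusted p = 0.032), whereas CAB3, which also encodes an LHCB1 protein, had 919, 762, 645, 453 and 556 CPM on day 5, against 1226, 1122, 1061 and 1665 CPM on day 3 (-0.95 ± 0.21, adjusted p = 0.047). The LHCB1 genes are near copies, and how the counting divided reads among them was not tested. CAB3 lost its call in 11 of 21 alternatives (highest adjusted p 0.17) and LHCB1.4 in 6 (0.16). The 29 photosystem and electron transport genes gave 0 calls, but 27 were negative, 8 were lower without overlap and the median was -0.39. Of all genes tested 2.47% were lower without overlap and 54.5% were above 0, a balance that depends on the scaling. CYP38, an immunophilin of the chloroplast lumen needed to assemble photosystem II, fell with 116 to 179 CPM on day 5, against 283 to 322 CPM on day 3 (-0.89 ± 0.19, adjusted p = 0.029), and DIT2.1, a dicarboxylate transporter used in photorespiration, fell with 76.8 to 148 CPM on day 5, against 194 to 278 CPM on day 3 (-0.95 ± 0.22, adjusted p = 0.049). Of 46 tested chloroplast-encoded genes 40 were negative, 0 passed and the median was -0.67, while libraries 4 and 5 of day 5 held the lowest chloroplast shares. All 14 tested mitochondrion-encoded genes were positive, 0 passed and the median was 1.0.

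Senescence and sugar genes gave no call. Of 18 tested senescence genes 0 rose or fell and the median was 0.20. Of 13 sugar-responsive genes and 23 starch genes 0 rose or fell, with medians of 0.24 and -0.04. The 14 tested auxin response genes gave 0 calls with 13 negative and a median of -0.47. Among 11 heat shock genes 1 fell, the cytosolic chaperone HSP90.2, with 165, 162, 154, 166 and 113 CPM on day 5, against 233, 372, 283 and 261 CPM on day 3 (-0.91 ± 0.20, adjusted p = 0.037). HSP90.2 lost its call in 8 of 21 alternatives (highest adjusted p 0.19). The plastid chaperone cpHsc70-2 also fell, with 46.6 to 71 CPM on day 5, against 99.4 to 151 CPM on day 3 (-1.08 ± 0.22, adjusted p = 0.029).

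**Figure D4:**
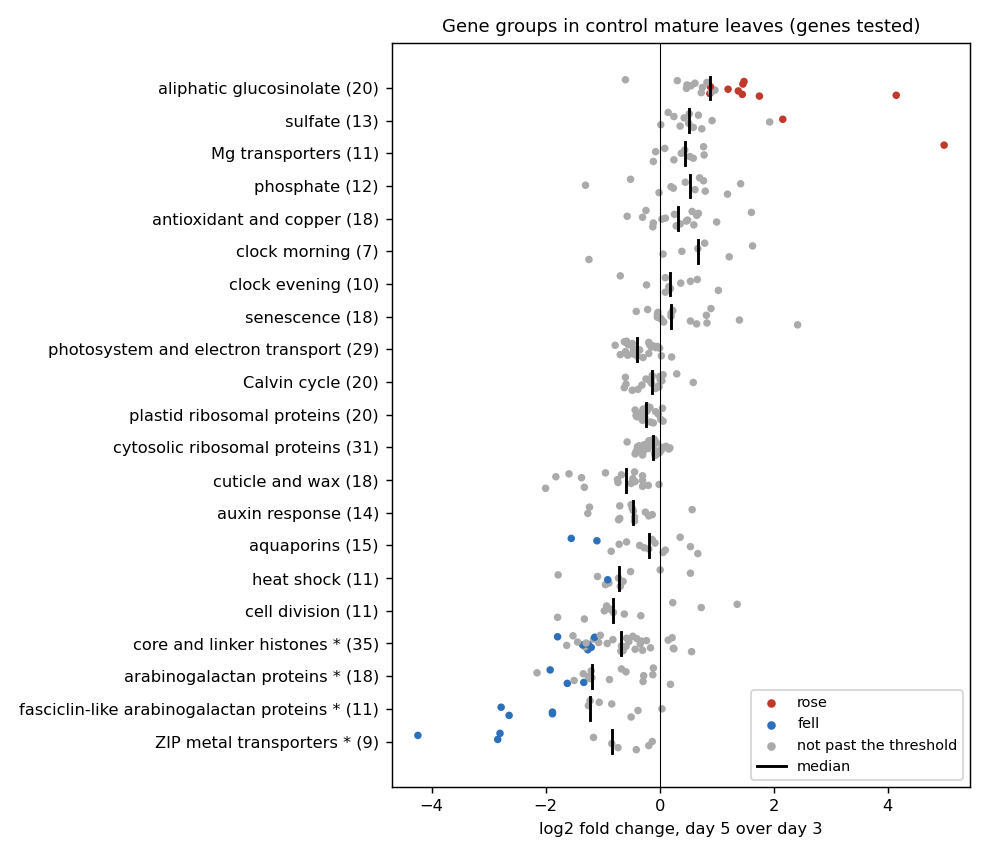
Log2 fold change (day 5 over day 3, log2(CPM + 1) scale) of each tested gene in the gene lists and families, 1 row per list with the number of tested genes in brackets; coloured points rose or fell, grey points did not pass, black bars are medians, and families marked with an asterisk were drawn up after the values were seen. Aliphatic glucosinolate genes lie to the right (median 0.88) and fasciclin-like and classical arabinogalactan proteins to the left (medians -1.22 and -1.19). The lists without an asterisk were chosen with earlier results of these data known.

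Because the hour of harvest is not known, the core clock was read gene by gene. Of the 17 tested clock genes 0 rose or fell. The 7 morning genes had a median of 0.67 and the 10 evening genes a median of 0.17. LHY, which peaks at dawn, was low on both days with 9.86, 2, 8.47, 0.38 and 0 CPM on day 5, against 20.8, 5.42, 4.97 and 3.78 CPM on day 3 (-1.24 ± 0.79, adjusted p = 0.54). PRR7, a pseudo-response regulator that represses morning genes, had 46.2, 93.5, 71, 18.6 and 69.7 CPM on day 5, against 26.8, 16.4, 26.9 and 19.7 CPM on day 3 (1.22 ± 0.38, adjusted p = 0.15), and passed in 3 of the alternatives. LNK1 and LNK2, which are co-activators of the morning, had log2 fold changes of 1.63 and 0.79 (adjusted p = 0.24 and 0.37). The Myb-like factors RVE2, RVE4 and RVE6 had 0.06, 0.39 and 0.67, with adjusted p-values of 0.64 or more.

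The evening genes gave no call either. CHE, a repressor of CCA1, was lower without overlap, with 76.1, 56.5, 91, 68.8 and 74.1 CPM on day 5, against 109.6, 121, 109.8 and 130 CPM on day 3 (-0.69 ± 0.21, adjusted p = 0.14). GI, which links clock and flowering, had 16.4, 16, 13, 10.5 and 19.6 CPM on day 5, against 6.3, 3.57, 10.9 and 7.98 CPM on day 3 (1.03 ± 0.40, adjusted p = 0.26). TOC1, the evening repressor, had 55.8 to 99.5 CPM on day 5, against 53.5 to 87.3 CPM on day 3 (0.10 ± 0.24, adjusted p = 0.88). ELF3, ELF4 and LUX, which form the evening complex, had 0.19, 0.16 and -0.23, while BOA, PRR3, FKF1 and ZTL had 0.37, 0.54, 0.66 and 0.10, and none of these 7 had an adjusted p under 0.37. The clock output GRP7 was higher without overlap, with 15410 to 21230 CPM on day 5, against 12000 to 13790 CPM on day 3 (0.38 ± 0.19, adjusted p = 0.42). These tests do not show that the hours of harvest were equal.

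The 300 bases upstream of each gene start were read from the TAIR10.1 genome (RefSeq) to see whether the genes that moved share short letters linked to clock and light, the G-box CACGTG and the evening element AAAATATCT, each searched on both strands. The G-box was found in 5 of 54 genes that rose (9.26%), in 2 of 63 that fell (3.17%) and in 3 of 20 aliphatic glucosinolate genes (15%), beside 8.11% of all tested genes. The evening element was found in 0 of 54 genes that rose and in 2 of 63 that fell (3.17%), beside 3.21% of all tested genes, whereas 4 of 17 tested clock genes (23.5%) held it. The windows of CYP83A1, IIL1 and MTO3, described above, are shown as examples with the motif in capitals. MSRB5 and AK-HSDH I, also described above, each hold 1 G-box as well and are not shown. The window of MIPS1 is shown because it holds most copies among the genes that fell. All 4 windows lie on the minus strand, CYP83A1 at chr4:7992430-7992729, IIL1 at chr4:7807985-7808284, MIPS1 at chr4:18472049-18472348 and MTO3 at chr3:5954092-5954391. MIPS1, an inositol-phosphate synthase that fell with 116 to 219.5 CPM on day 5, against 278 to 436 CPM on day 3 (-1.11 ± 0.22, adjusted p = 0.023), holds 3 copies of the G-box, and MTO3 holds the evening element.
CYP83A1: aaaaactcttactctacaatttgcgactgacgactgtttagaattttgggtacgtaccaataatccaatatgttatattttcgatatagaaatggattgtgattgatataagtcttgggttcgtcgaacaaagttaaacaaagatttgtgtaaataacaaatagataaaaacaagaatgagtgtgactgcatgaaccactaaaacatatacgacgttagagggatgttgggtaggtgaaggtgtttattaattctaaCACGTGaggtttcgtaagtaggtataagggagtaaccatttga
IIL1: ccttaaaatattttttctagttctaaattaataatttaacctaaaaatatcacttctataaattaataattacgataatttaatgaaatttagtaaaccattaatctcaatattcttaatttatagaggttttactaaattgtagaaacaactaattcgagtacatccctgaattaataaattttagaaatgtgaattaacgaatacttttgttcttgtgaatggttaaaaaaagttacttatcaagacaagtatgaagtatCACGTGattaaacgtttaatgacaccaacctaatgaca
MIPS1: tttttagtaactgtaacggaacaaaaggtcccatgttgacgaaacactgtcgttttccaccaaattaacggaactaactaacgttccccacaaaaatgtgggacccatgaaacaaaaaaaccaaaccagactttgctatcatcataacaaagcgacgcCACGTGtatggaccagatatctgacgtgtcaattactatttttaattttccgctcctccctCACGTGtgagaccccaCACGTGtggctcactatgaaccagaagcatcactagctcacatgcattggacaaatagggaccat
MTO3: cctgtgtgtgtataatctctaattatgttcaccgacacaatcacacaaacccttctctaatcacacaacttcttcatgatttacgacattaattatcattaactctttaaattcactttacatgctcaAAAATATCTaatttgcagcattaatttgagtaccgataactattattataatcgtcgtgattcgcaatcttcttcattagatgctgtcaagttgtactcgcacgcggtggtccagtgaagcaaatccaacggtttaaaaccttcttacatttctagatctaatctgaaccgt

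Mg-deficient mature leaves of the same age gave a comparison that shares no library with the control one. Of the 55 genes that rose in control leaves 54 were tested there and 53 had a positive log2 fold change (98.1%, beside 56% of all genes), and of the 63 that fell 60 were negative (95.2%, beside 44% of all genes). Their medians were 1.38 in control and 1.18 in Mg-deficient leaves for the rises, and -1.49 in control and -1.07 in Mg-deficient leaves for the falls, where the control medians are those of genes chosen in the control leaves. By themselves the 6 Mg-deficient libraries gave 25 calls in 13065 genes (0.191%), which included 11 of the rises and 4 of the falls. As both sets of plants were harvested on the same days, this comparison does not separate age from harvest occasion either.

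The genes described above were then read in the Mg-deficient leaves. CAX3 had 1700, 1060 and 2570 CPM on day 5, against 445, 187 and 99.9 CPM on day 3 (3.03 ± 0.42, adjusted p = 0.0063), and the difference between the day changes of control and Mg-deficient leaves was 1.96 ± 1.21, adjusted p = 0.93. CYP79F1 had 391, 315 and 315 CPM on day 5, against 141, 104 and 120 CPM on day 3 (1.48 ± 0.25, adjusted p = 0.019). MAM3 had 56.8, 20.4 and 75.8 CPM on day 5, against 5.8, 5.28 and 9.7 CPM on day 3 (2.57 ± 0.53, adjusted p = 0.065). SAHH2 had 222, 304 and 201 CPM on day 5, against 718, 854 and 746 CPM on day 3 (-1.69 ± 0.24, adjusted p = 0.0063). FLA2 had 41.4, 47.1 and 44.4 CPM on day 5, against 213, 317 and 137 CPM on day 3 (-2.22 ± 0.32, adjusted p = 0.0063). TIP2;1 was less clear, with 454, 400 and 763 CPM on day 5, against 615, 960 and 635 CPM on day 3 (-0.48 ± 0.28, adjusted p = 0.57), and its difference from the control change was -1.07 ± 0.49, adjusted p = 0.93.

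Tested directly, the change from day 3 to day 5 differed between control and Mg-deficient mature leaves for 0 of 13128 genes (0%). At an unadjusted p under 0.01 limma gave 49 genes with a more positive change in control leaves and 51 with a more negative one. Under 0.05 it gave 329 and 331. With 3 libraries a day in Mg-deficient leaves, this does not show that the changes were equal.

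Control expanding leaves were sampled on the same days, and in a fit of their own 1308 of 12860 genes were called. Whether mature and expanding leaves came from the same plants is not given in the sources used here, and the test of the difference between the tissues treated all libraries as independent. Of the 55 genes that rose in mature leaves 44 were tested in expanding leaves and 41 were positive (93.2%, beside 48.5% of all genes), and of the 63 that fell 62 were tested and 49 were negative (79%, beside 51.5%). The day change differed between mature and expanding leaves for 100 of 13170 genes (0.759%), 22 with a more positive change in mature leaves and 78 with a more negative one. These counts were 13 and 33 without library 2 of day 3, and 69 and 140 without library 1 of day 5, both of control mature leaves. With the replicate number as a block they were 20 and 69, and 69 of the 89 calls were among the 100. Without 1 other mature library the more negative count was 48 (library 2 of day 5), 50 (library 3 of day 5) and 50 (library 4 of day 3).

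Among the 63 genes that fell in mature leaves 16 were in that set, all with a more negative change in mature leaves. These genes were chosen for their fall in the same mature libraries, so a more negative change there was favoured by the choice. The adjusted p-values of the differences below are therefore no independent support for a fall particular to mature leaves. FLA2 stood at 256, 208, 550, 198 and 195 CPM on day 5, against 535, 332, 416, 318 and 294 CPM on day 3 in expanding leaves, and the difference between the tissues' changes was -2.26 ± 0.43, adjusted p = 0.0062. AGP21 stood at 1200, 1060, 1630, 1020 and 1210 CPM on day 5, against 1610, 734, 1040, 880 and 912 CPM on day 3 in expanding leaves (difference -1.90 ± 0.34, adjusted p = 0.0035). In expanding leaves both wall proteins thus stayed far above their day 5 level in mature leaves. PRP4 had 1550 to 3130 CPM on day 5, against 1820 to 2440 CPM on day 3 there (difference -1.74 ± 0.37, adjusted p = 0.018). HTA6 had 167 to 196 CPM on day 5, against 194 to 231 CPM on day 3 there (difference -1.63 ± 0.36, adjusted p = 0.028). SAHH2 had 381 to 652 CPM on day 5, against 791 to 933 CPM on day 3 there (difference -1.61 ± 0.38, adjusted p = 0.04). XTH31 moved the other way in the expanding leaves, with 52, 92.4, 61.3, 81.5 and 48 CPM on day 5, against 38.9, 39.2, 29.1, 15.3 and 29.5 CPM on day 3 (1.14 ± 0.25, adjusted p = 0.0073), and its difference was -2.70 ± 0.46, adjusted p = 0.0022. Also in the set were FLA16, AGP41, HIS4, HTB9, DUT1 and UGT74F2, a glucosyltransferase of salicylic acid.

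Among the 55 rises only 4 differed between the tissues, and the rises too were chosen in the mature libraries used in that test. MAM3 was at or near 0 in all 10 expanding libraries, with at most 1.92 CPM, and its rise was larger in mature leaves (difference 3.63 ± 0.75, adjusted p = 0.014). MAM3 passed the filter only through the mature leaves, so this difference repeats the rise seen there. AT2G17710, an unassigned gene, had 23 to 36.8 CPM on day 5, against 4.07 to 8.49 CPM on day 3 in mature leaves and a difference of 2.65 ± 0.44, adjusted p = 0.0021. MT1C and AT1G64370 rose more in expanding leaves, with differences of -2.22 ± 0.41, adjusted p = 0.0051 and -2.19 ± 0.28, adjusted p = 0.00012. The other glucosinolate genes gave no such difference, as for BCAT4 (67.7 to 233 CPM on day 5, against 22.9 to 40.9 CPM on day 3 in expanding leaves; 1.68 ± 0.28, adjusted p = 0.00074; difference -0.22 ± 0.37, adjusted p = 0.87) and CYP83A1 (83.3 to 194 CPM on day 5, against 34.2 to 57.6 CPM on day 3; 1.32 ± 0.22, adjusted p = 0.00078; difference -0.12 ± 0.35, adjusted p = 0.93). CAX3 stayed at 2.03 to 46.7 CPM on day 5, against 1.67 to 8.28 CPM on day 3 in expanding leaves, and the difference between the tissues was 3.73 ± 1.12, adjusted p = 0.14.

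For CAB2 and LTL1 the larger day change was that of the expanding leaves. CAB2, an LHCB1 gene, had 139 to 235 CPM on day 5, against 1480 to 2300 CPM on day 3 in expanding leaves and 125 to 476 CPM on day 5, against 298 to 384 CPM on day 3 in mature leaves (difference 2.72 ± 0.35, adjusted p = 0.00012). LTL1, a lipase, had 13.7 to 44.7 CPM on day 5, against 254 to 399 CPM on day 3 in expanding leaves while in mature leaves its level was 0 to 1.58 CPM on day 5, against 0.00868 to 1.88 CPM on day 3 (difference 2.92 ± 0.54, adjusted p = 0.0051). LTL1 passed the filter only through the expanding leaves and was not tested in mature leaves alone. Near 0 a large change could not appear there, so its difference only repeats the fall in expanding leaves. UGT74F2, in contrast, fell in mature leaves, with 17.2 to 32 CPM on day 5, against 47.6 to 76.1 CPM on day 3 (-1.39 ± 0.26, adjusted p = 0.017), and stood at 11.3 to 18.1 CPM on day 5, against 1.08 to 15.3 CPM on day 3 in expanding leaves (not called, adjusted p = 0.14), and its difference lost its call in 6 of 17 alternatives (highest adjusted p 0.089).

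**Figure D5:**
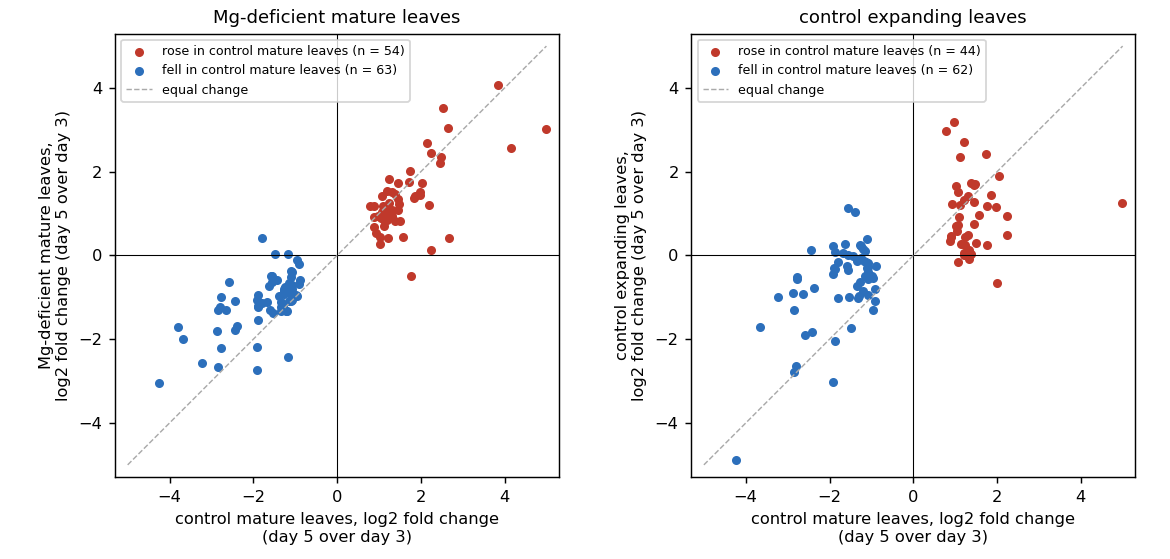
Log2 fold change (day 5 over day 3) in Mg-deficient mature leaves and in control expanding leaves, against that in control mature leaves, 1 point per gene called in control mature leaves; red points rose and blue points fell there, and both axes are on the log2(CPM + 1) scale. In Mg-deficient leaves 53 of 54 rises and 60 of 63 falls lie on the same side of 0, in expanding leaves 41 of 44 and 49 of 62.

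On day 8 the control mature leaves were measured in 4 libraries in which 9697 to 14449 genes had a deposited value above 0.5, so that low genes there are uncertain, and no test was made. As the day 8 libraries would be set against the same day 3 libraries, their values are only given beside those of day 5. CAX3 stood at 619, 764, 858 and 1170 CPM on day 8, near its day 5 values. MAM3 stood at 99.9, 162, 148 and 251 CPM, above every day 5 library. MAM1 stood at 200, 141, 320 and 201 CPM, and AT2G46600, the EF-hand gene, at 473, 899, 309 and 265 CPM. SAHH2 stood at 179, 165, 123 and 205 CPM, within the range of day 5. FLA2 had 38.6, 48.7, 1.56 and 0.0717 CPM and HTA6 9.57, 0.316, 0.38 and 0.0198 CPM. ZIP9 was at 1.8 to 41.7 CPM in 3 libraries and above every day 5 library in the other. GER3 had 136, 3.8, 44 and 50.4 CPM, each below 4 of the 5 day 5 libraries, and CYP83A1 had 441, 389, 418 and 351 CPM, within the day 5 range.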

How the data were processed

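Reads of 50 bases had been mapped to TAIR10 and counted per gene by the authors, who deposited, per tissue and day, a table of normalised signal made with edgeR under R 3.5.0, in which each library of a table is adjusted to a common size with a dispersion of 0.05, so the signal is not a count and no count test was made. Each column was divided by its total to CPM and log2(CPM + 1) was tested with limma 3.58.1 (lmFit, eBayes with trend, 2-sided, R 4.3.3), for genes averaging 5 CPM or more over the libraries in the fit, with no covariate, and genes were called where the adjusted p of Benjamini and Hochberg was below 0.05. Differences between tissues or treatments are interaction terms. Library values were compared with an exact permutation test. The authors themselves had used the exact test of edgeR at p under 0.01. Undoing the adjustment gave whole reads for 99.7 to 100% of low signals, to a tolerance of 0.05 reads, and these reads give the depths and a voom alternative. Values below 1 read remain from the adjustment and were kept. Replicates are composites of separate plants, so p-values measure the spread between such pools.

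The groups come from the labels. The 47 gene lists (898 genes, 837 found by name in RefSeq) and the members of the comparison were chosen with earlier results of these data known, and the 7 families after the values were seen. Named by rule were the 10 largest rises and 10 largest falls of genes with no overlap and a mean of at least 20 CPM, up to 4 called members per list or, where none was called, the 2 highest, every tested clock gene, and 5 differences per direction for each interaction; other names were chosen after their values were seen. Gene positions and upstream bases are from TAIR10.1 (RefSeq). Other settings were another scaling, a total without organelle genes, pseudocounts of 0.25 and 5 CPM, other filters, array weights, a replicate block, leaving out each library, and one fit with Mg-deficient leaves. The tables of roots and of expanding leaves on day 8 were not used. Figures were drawn with Python 3.11.15, numpy 2.4.6 and matplotlib 3.10.9.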

Additional observations from a re-analysis of the deposited data

Results flagged for a closer look

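Single libraries stood apart from the others of their day in 17 of 244 groups of 4 or 5 libraries looked at (6.97%, where chance flags about 5%). In CPM, library 5 of day 5 was the highest of its day for CML41 (305.2, the others 109.2 to 144), BOA (65.3), GRP7 (21230), PSY (107.4) and TCP3 (86.08), and the lowest for HSP90.2 (113.3). In other day 5 libraries LNK2 was highest in library 2 (22.01) and CAD4 lowest in library 1 (104.6). On day 3, library 1 was highest for LHY (20.83, the others 3.778 to 5.422), EXPA1 (639.8), FAMA (87.74) and FDH (212.7), and lowest for ACD6 (597.4). Library 3 of day 3 was lowest for PRR3 (15.41) and RBCS3B (6907) and highest for BIP1 (513.4), and library 4 of day 3 was highest for PUP18 (201.1, the others 36.47 to 64.28). Among these genes CML41 and PUP18 are among the largest changes; PUP18, a purine permease, lost its call without library 4 of day 3, and without library 5 of day 5 CML41 kept its call.

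The day change differed between mature and expanding control leaves (limma interaction, log2 scale, mature minus expanding) by 4.59 for AT1G06360, 3.09 for J11, 2.92 for LTL1, 2.72 for CAB2, 2.55 for XTH9, -2.99 for AT2G32870, -2.70 for XTH31, -2.56 for AT3G16670, -2.45 for UGT74F2 and -2.41 for RMA2. RMA2 lost its call in 10 of 17 alternatives (highest adjusted p 0.16), UGT74F2 in 6 (0.089) and AT1G06360, J11 and LTL1 in 1 each. For AT1G06360, XTH9 and LTL1 the value rests on expanding leaves, as the mature leaves held little of these RNAs.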

How the results depend on the processing

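Over 13118 genes 55 rose and 63 fell. Without a filter on low genes these counts were 22 and 19, with array weights 248 and 211, and with the replicate number as a block 110 and 105. Chosen after seeing the data, the fit without library 5 of day 5 and library 1 of day 3 gave 105 rises, and that without libraries 4 and 5 of day 5, those of low chloroplast share, gave 121 rises and 98 falls. Leaving out 1 library gave 12 to 88 rises and 7 to 93 falls. A pseudocount of 0.25 CPM gave 82 calls in all and voom on the recovered reads 106, of which 94 were among the 118. The block kept 113 of the 118 genes and made 215 calls with 1 library unpaired, but same-numbered libraries of the 2 days deviated together with correlations of 0.1, -0.02, -0.05 and -0.07, so that the numbers do not pair the samples. For the difference between mature and expanding leaves (22 and 78) the more positive count was 14 with a pseudocount of 0.25 CPM and 41 with one of 5 CPM, both counts were 38 and 49 without a filter and 89 and 191 with array weights, and leaving out 1 mature library gave 13 to 69 and 33 to 140. The difference between control and Mg-deficient leaves had 0 calls in every setting run. No named result changed sign where it was called. The planned edgeR and DESeq2 alternatives were not run, because the deposited values are not counts. The cause of these changes was not tested. Depth limits genes near 1 read, such as MAM3 on day 3.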

Other observations

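Some lists that the text has not yet described had few or no calls but leaned one way. Of 12 phosphate genes 0 passed and 9 were positive (median 0.54). PAP17, a phosphatase induced by low phosphate, had 10.3 to 34.3 CPM on day 5, against 3.24 to 10.2 CPM on day 3 (1.42 ± 0.42, adjusted p = 0.13), and SPX1, a sensor of phosphate status, had 10.3 to 36 CPM on day 5, against 4.62 to 9.86 CPM on day 3 (1.19 ± 0.41, adjusted p = 0.2). Neither gene overlapped between the days. Of 18 antioxidant and copper genes 0 passed and 13 were positive (median 0.32). COPT2, a copper transporter, averaged 32.6 ± 15.6 CPM on day 5, against 9.92 ± 5.48 CPM on day 3 (SD, n = 5 and 4; 1.61 ± 0.39, adjusted p = 0.06), and CSD1, a copper/zinc superoxide dismutase, had 44.8, 68.5, 93, 150.3 and 125 CPM on day 5, against 37.1, 45.9, 51.6 and 41.6 CPM on day 3 (1.0 ± 0.30, adjusted p = 0.14). Of 15 genes of touch and rapid wound response 0 passed and 12 were negative (median -0.52). These lists were chosen with earlier results of these data known.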
